A study of Homo sapiens with 12 samples.

Results

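The genes described here are 9 that carry the signal from foreign nucleic acid to the interferon response: the receptor TLR3, the RNA helicases DDX58 (RIG-I) and IFIH1 (MDA5), the adaptor MAVS, the transcription factors IRF1, IRF3, IRF7 and IRF9, and STAT2. They were chosen by name, 9 of the 58735 genes of the count table, and all 9 passed the filter on low counts in each of the 7 comparisons below. TLR3 recognises double-stranded RNA in endosomes, and DDX58 and IFIH1 recognise it in the cytosol and pass the signal to MAVS on mitochondria. The signal activates IRF3 and IRF7, which switch on interferon genes. Secreted interferon acts back on cells through a complex that holds STAT2 and IRF9, and many of these sensors are themselves induced by it.

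The cells were MDA-MB-231, a long-established line from human breast cancer that is triple-negative and mesenchymal in type, and total RNA was sequenced from 12 libraries in 4 groups of 3. Cells carried a guide RNA against UFL1 (sgUFL1), a guide against UFM1 (sgUFM1), or a control guide (sgCtrl) with separate control libraries to go with each of these guides. UFM1 is a ubiquitin-like protein that becomes attached to other proteins, and UFL1 is its ligase. Knockdown is the word of the series title and knockout that of its design text. How the guides were delivered, how long the cells were kept and whether each line was a clone or a pool is not given in the sources used here, nor whether libraries of 1 group were made from separate cultures. A p-value here therefore rests on the spread from library to library, and that spread may be technical.

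For 6 libraries the names in the count table and in the table of FPKM (fragments per kilobase of transcript, scaled for depth) are exchanged, which decides what each comparison is called. The 3 libraries called set 1 here are sgUFL1 in the count table and controls for sgUFM1 in the FPKM table. The 3 libraries called set 2 are controls for sgUFM1 in the count table and sgUFL1 in the FPKM table. The sgUFM1 libraries and the controls for sgUFL1 bear the same names in both tables. All values below follow the libraries, with both readings given.

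TLR3, DDX58 and IFIH1 are RNA sensors whose levels were lowest in set 2 and higher in the sgUFM1 libraries, and their promoters are shown because such genes are classic targets of the interferon factors in the same list. Each sequence runs from 250 bases before the RefSeq start of the gene to 10 bases after it, on the gene's own strand in GRCh38.p14. Capitals mark matches on either strand to GAAA and GAAA spaced by any 2 bases, the core of the interferon-stimulated response element (ISRE) bound by IRF and STAT2 complexes, or to TTCNNNGAA, the gamma-activated site (GAS) bound by STAT dimers.
TLR3, chr4:186068906-186069165, plus strand: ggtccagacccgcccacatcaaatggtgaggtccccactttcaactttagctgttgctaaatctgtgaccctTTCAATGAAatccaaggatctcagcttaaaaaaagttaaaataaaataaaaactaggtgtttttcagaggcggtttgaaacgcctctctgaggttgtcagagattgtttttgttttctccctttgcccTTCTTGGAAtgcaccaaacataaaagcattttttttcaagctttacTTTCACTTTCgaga
DDX58, listed as RIGI, chr9:32526187-32526446, minus strand: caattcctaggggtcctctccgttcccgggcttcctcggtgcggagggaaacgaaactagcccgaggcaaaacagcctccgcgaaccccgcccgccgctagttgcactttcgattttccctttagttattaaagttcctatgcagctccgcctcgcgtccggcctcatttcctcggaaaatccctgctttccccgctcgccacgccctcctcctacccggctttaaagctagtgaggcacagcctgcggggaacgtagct
IFIH1, chr2:162318675-162318934, minus strand: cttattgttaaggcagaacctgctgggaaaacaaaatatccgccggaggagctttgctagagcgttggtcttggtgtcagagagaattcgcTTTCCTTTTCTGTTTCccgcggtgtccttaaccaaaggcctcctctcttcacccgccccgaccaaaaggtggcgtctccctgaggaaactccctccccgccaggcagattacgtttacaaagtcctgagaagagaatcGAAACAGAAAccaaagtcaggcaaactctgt
The TLR3 window holds an ISRE core at bases 247 to 256, across the start, and GAS matches that begin at bases 73 and 201. The IFIH1 window holds 3 ISRE cores, at bases 92 to 101, 98 to 107 and 230 to 239, and the earlier pair overlap by 4 bases. The DDX58 window holds neither motif. RefSeq windows of 300 bases, 250 before and 50 after the start, were found for 7 of the 9 genes. An ISRE core was present in 2 of these 7 against 3.57% of 35116 promoters, and a GAS in 3 of the 7 (TLR3, IRF1 and IRF9) against 7.66%. A match is a match of letters and says nothing on binding in these cells.

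Totals ran from 15342793 to 18033331 counts per library. UFL1 was lowest in set 2, at 12.74, 11.46 and 13.12 CPM (counts relative to the library total, scaled by the TMM method), against 16.64 to 19.37 in set 1, 20.49 to 25.04 in the sgUFM1 libraries and 19.69 to 30.19 in the controls for sgUFL1. UFM1 was lowest in the sgUFM1 libraries, at 37.12, 39.65 and 39.38 CPM, against 49.18 to 71.02 in the other 9. Markers of the labelled line were present (VIM at 749.8 to 1070 CPM), except SPARC at 1.284 CPM or less. The 8 leukocyte markers summed to 2.136 to 4.369 CPM, of which CD14 held 2.075 to 4.199, while CD3E and MS4A1 and the dendritic cell markers CLEC4C, LILRA4, CLEC9A, XCR1 and FLT3 each had at most 3 counts over all libraries together. The 6 luminal markers summed to 30.08 to 32.91 CPM in the controls for sgUFL1 and to 35.06 to 41.08 elsewhere. Of these, FOXA1 held 17.03 to 26.16 CPM, EPCAM 5.894 to 9.732 and GATA3 1.445 to 5.652, and ESR1 and CDH1 reached at most 0.7423 and 0.3405. The 6 fibroblast and endothelium markers summed to 33.76 to 38.68 CPM in the sgUFM1 libraries and to 9.935 to 18.81 elsewhere. In that sum PECAM1 ranged from 5.72 to 29.47 CPM over the libraries and PDGFRB from 3.733 to 8.892, while VWF, DCN, CDH5 and LUM reached at most 1.021, 0.2408, 0.1931 and 0.06186, so that the higher sum in the sgUFM1 libraries came mainly from PECAM1. Their part in the differences below was not tested, and in bulk RNA more cells of a type and more RNA per cell cannot be told apart. Averaged over counts, transcripts had a GC content of 48.33 to 49.38% in the controls for sgUFL1 and of 49.81 to 50.94% in the other 9 libraries. Replicate 1 of set 1 differed from replicates 2 and 3 with chi-square values per gene of 20.54 and 20.07, against 2.411 between replicates 2 and 3. In the controls for sgUFL1 all pairs were far apart, at 34.88 between replicates 2 and 3, 20.2 between 1 and 2, and 16.84 between 1 and 3.

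In the GRCh38 annotation of the files TLR3 lies at chr4:186069152-186088069, DDX58 at chr9:32455705-32526324, IFIH1 at chr2:162267079-162318703 and MAVS at chr20:3846799-3876123. IRF1 lies at chr5:132481609-132490798, IRF3 at chr19:49659569-49665875, IRF7 at chr11:612553-615999, IRF9 at chr14:24161053-24166565 and STAT2 at chr12:56341597-56360155, and all 9 are protein-coding genes whose deposited length equals the sum of their annotated exon bases. By level per transcript length, IRF3 was the most abundant of the 9 at a mean of 22.16 FPKM over the 12 libraries. MAVS followed at 16.3, DDX58 at 9.125 and STAT2 at 8.265 FPKM. IRF1 stood at 4.613, IFIH1 at 2.284, IRF7 at 2.032 and TLR3 at 1.169 FPKM, and IRF9 was near the limit of detection at 0.2224 FPKM. Another gene on the same strand shares 48.44% of the IRF9 exon bases, so this value may leave out part of its reads. Among 11412 protein-coding genes with a mean of at least 0.5 FPKM, 81.3% lay below IRF3 and 74% below MAVS, but 21.2% lay below IFIH1 and 9.9% below TLR3. TLR3, IFIH1 and the interferon-inducible IRF7 were low next to MAVS and IRF3. IRF3 and MAVS overlapped in their ranges over the libraries (15.72 to 29.38 and 13.47 to 18.19 FPKM), but IRF3 was above MAVS within every library. The ranges of DDX58 (6.621 to 11.74) and STAT2 (7.087 to 10.89) also overlapped, and their order changed from library to library.

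**Figure D1:**
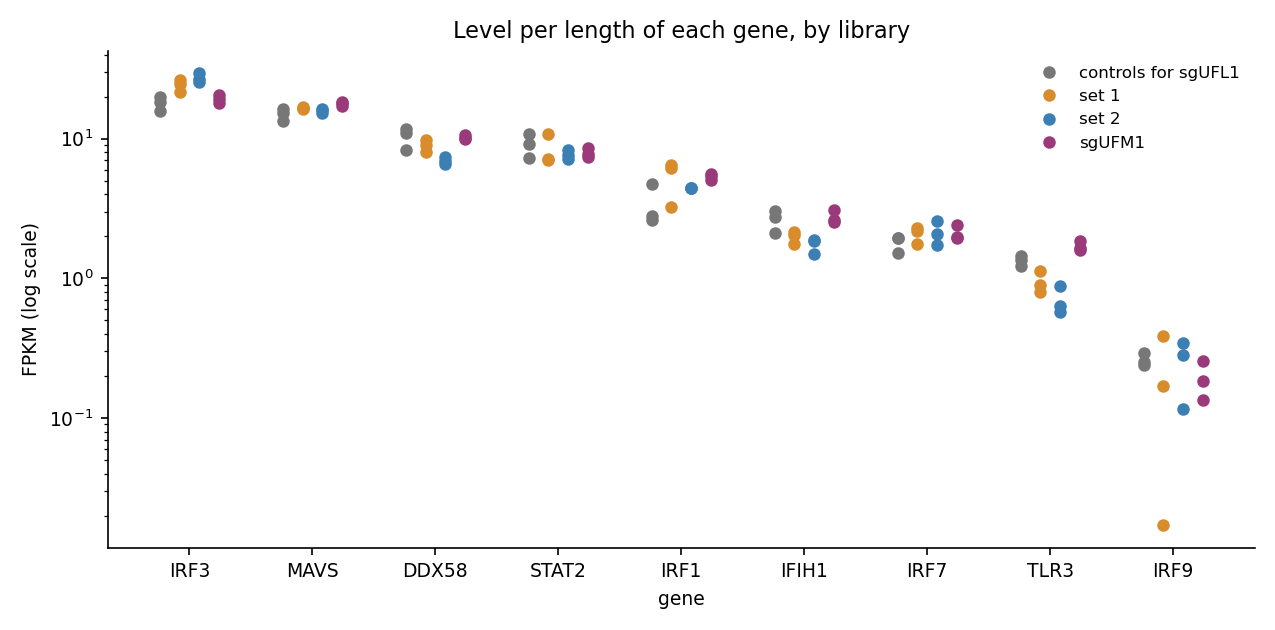
Level of each gene per transcript length (FPKM, log axis) in every library, ordered by the mean over 12 libraries, with 1 point for each library and 1 colour for each of the 4 groups. IRF3 and MAVS lie at the top, and 1 library of set 1 sets the low point of IRF9. TLR3 runs from 0.5767 to 1.856 FPKM, with the sgUFM1 libraries highest and sets 1 and 2 overlapping.

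TLR3, the endosomal receptor for double-stranded RNA, gave the widest range of the 9 genes. It measured 11.13, 10.81 and 12.58 CPM in the sgUFM1 libraries, while the controls for sgUFL1 had 8.369, 9.703 and 9.217. Set 1 had 5.403, 7.681 and 6.106 CPM, and set 2 had 5.96, 4.313 and 3.912. All 3 sgUFM1 libraries were above the other 9, and the controls for sgUFL1 were above sets 1 and 2, which overlapped each other. Group means were 11.51 ± 0.939, 9.096 ± 0.6748, 6.397 ± 1.166 and 4.728 ± 1.085 CPM (SD, n = 3) in that order, a 2.43-fold span. In edgeR's quasi-likelihood test, TLR3 was higher in the sgUFM1 libraries than in set 2 by 1.28 on the log2 scale (SE 0.17, adjusted p = 7.401e-06) and higher than in set 1 by 0.85 (SE 0.17, adjusted p = 0.012). The call against set 1 was lost without replicate 2 of the sgUFM1 libraries (0.89) and without replicate 3 (0.79). Against the controls for sgUFL1 the difference was 0.33 (SE 0.16, adjusted p = 0.20), which did not pass the threshold of 0.05. Set 2 was lower than these controls by a log2 difference of -0.96 (SE 0.21, adjusted p = 0.0048).

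DDX58, the cytosolic sensor of RNA ends, separated set 2 from the rest. It measured 32.75, 29.17 and 30.29 CPM in set 2 and 35.06, 43 and 39.95 in set 1. The sgUFM1 libraries had 43.48, 46.8 and 44.21 CPM, and the controls for sgUFL1 had 36.25, 48.51 and 51.41. Set 2 lay below all 9 other libraries, while the sgUFM1 libraries lay within the range of the controls for sgUFL1. The sgUFM1 libraries were higher than set 2 by 0.55 (SE 0.085, adjusted p = 4.657e-05, edgeR), and set 2 differed from the controls for sgUFL1 by -0.58 (SE 0.14, adjusted p = 0.0084). The second of these calls was lost without replicate 2 of set 2 (-0.54). Between the sgUFM1 libraries and the controls for sgUFL1 the log2 difference was -0.02 (SE 0.14), and against set 1 it was 0.19 (SE 0.095, adjusted p = 0.23).

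IFIH1, the cytosolic sensor of long double-stranded RNA, followed a similar order at a lower level. It measured 13.45, 13.07 and 15.94 CPM in the sgUFM1 libraries and 10.84, 14.22 and 15.71 in the controls for sgUFL1, which overlapped. Set 1 had 9.087, 10.63 and 11.17 CPM and set 2 had 9.732, 9.59 and 7.761, also overlapping, and each of these 6 libraries was below every sgUFM1 library. The sgUFM1 libraries were higher than set 2 by 0.65 (SE 0.14, adjusted p = 0.00091, edgeR). Against set 1 the difference of 0.46 (SE 0.14, adjusted p = 0.063) did not pass, and it passed without replicate 1 of set 1 (0.38). Set 2 differed from the controls for sgUFL1 by -0.61 (SE 0.185, adjusted p = 0.021), a call lost without replicate 3 of those controls (-0.48), without replicate 2 of set 2 (-0.65) or without its replicate 3 (-0.51). The call was also lost with limma on FPKM (-0.47).

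MAVS, the mitochondrial adaptor on which both helicases signal, varied little. It measured 216.1, 213.5 and 203.4 CPM in the sgUFM1 libraries, 195.4, 202 and 195.9 in set 1, 189.3, 182.4 and 192.2 in set 2, and 193, 179.8 and 159.5 in the controls for sgUFL1. The sgUFM1 libraries were above the other 9, but by small amounts. The difference from set 2 was 0.17 (SE 0.063, adjusted p = 0.035, edgeR), and this call was lost in 8 of the 13 alternative fits, among them those without replicates 2 or 3 of set 2 and those without replicates 1 or 2 of the sgUFM1 libraries. Against the controls for sgUFL1 it was 0.24 (SE 0.11, adjusted p = 0.15) and against set 1 it was 0.09 (SE 0.069, adjusted p = 0.43).

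**Figure D2:**
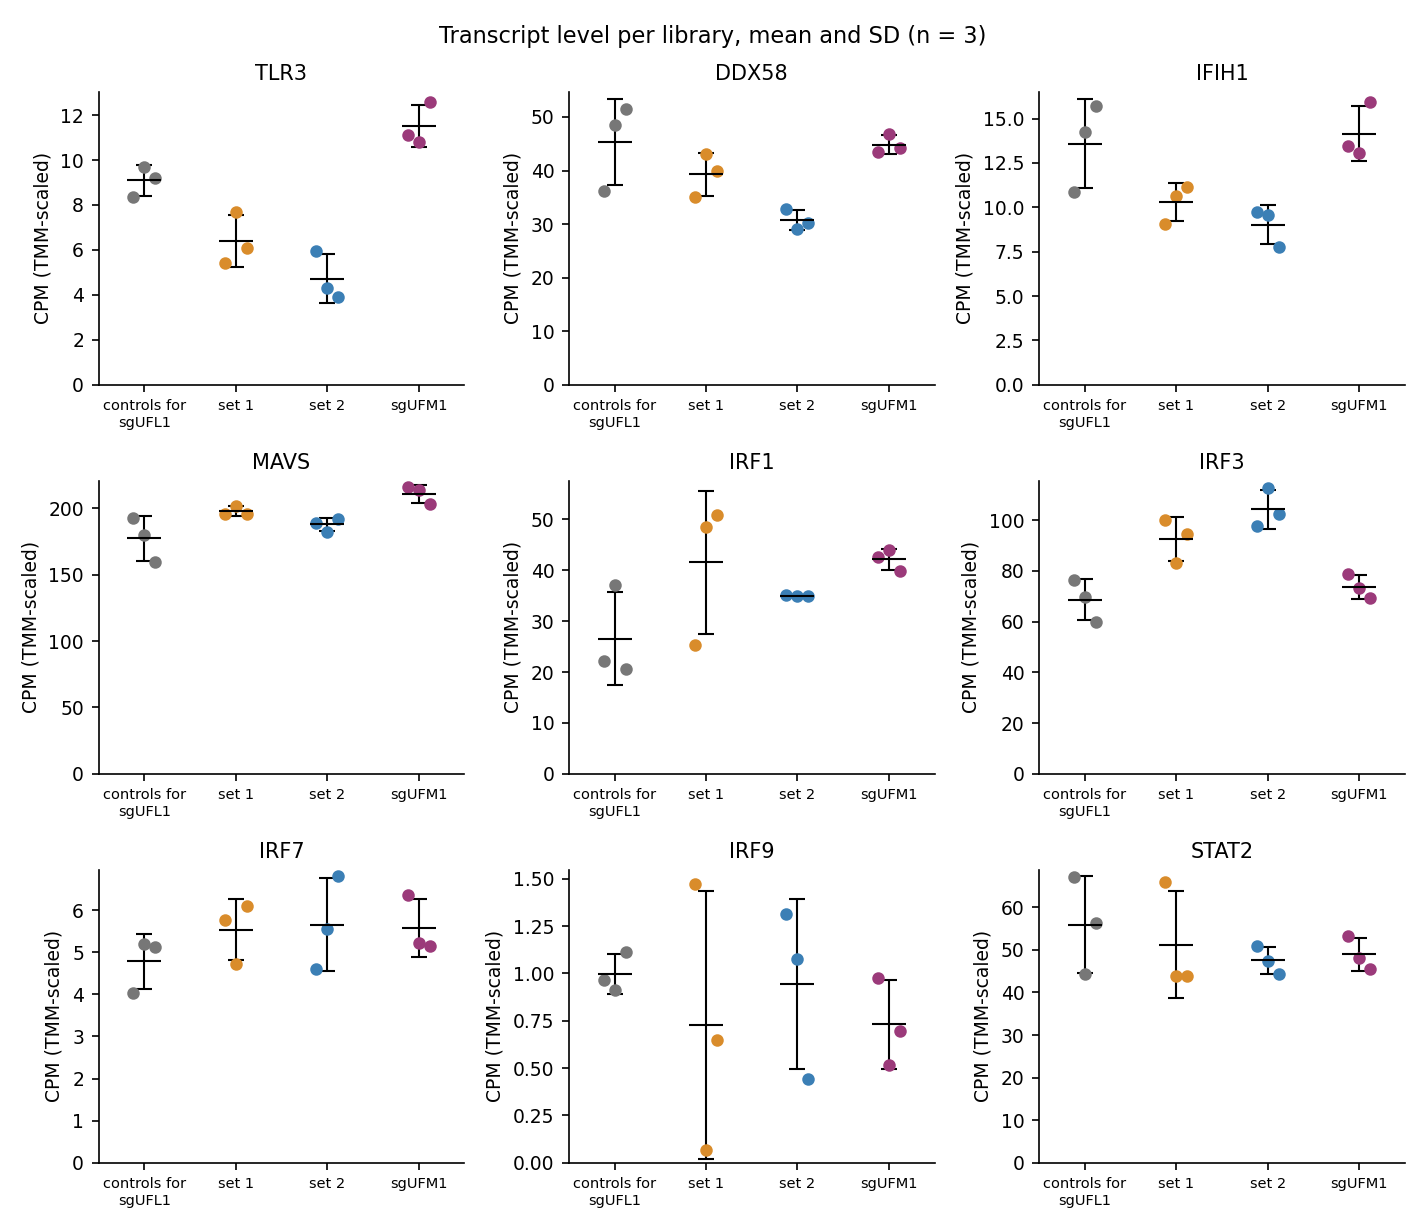
Transcript level of the 9 genes in CPM (TMM-scaled, linear axes from 0) by library group, with each library as a point and the mean and SD of 3 libraries as a bar. TLR3 is highest in the sgUFM1 libraries (10.81 to 12.58 CPM) and lowest in set 2 (3.912 to 5.96). IRF3 is highest in set 2 (97.65 to 112.8 CPM) and lowest in the controls for sgUFL1 (60.01 to 76.29). IRF1 and STAT2 spread within set 1 and within the controls for sgUFL1.

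IRF3, the constitutive factor that MAVS signalling activates, ran opposite to the sensors. It measured 97.65, 112.8 and 102.6 CPM in set 2 and 99.89, 83.17 and 94.72 in set 1. The sgUFM1 libraries had 78.7, 73.39 and 69.17 CPM and the controls for sgUFL1 had 76.29, 69.63 and 60.01. Every library of sets 1 and 2 was above every library of the other groups, and within each pair of groups the values overlapped. IRF3 was lower in the sgUFM1 libraries than in set 2 (log2 difference -0.49, SE 0.077, adjusted p = 4.805e-05, edgeR) and lower than in set 1 (-0.33, SE 0.091, adjusted p = 0.045). The second call was lost in 8 of 13 alternatives. These were the fits without replicate 3 of set 1 (-0.315) or without any single sgUFM1 library (-0.377, -0.323 and -0.275), the fit over 12 libraries (-0.327), the replicate block (-0.326), limma on FPKM (-0.317) and the offsets for GC content and length described below (-0.16). Set 2 was higher than the controls for sgUFL1 by 0.58 (SE 0.12, adjusted p = 0.0034), and set 1 differed from them by 0.44 (SE 0.12, adjusted p = 0.082). Of the annotated exon bases of IRF3, 19.35% are shared with BCL2L12 on the opposite strand, and the strand of counting is not given in the sources used here, so reads there cannot be assigned to either gene with certainty.

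IRF1, a factor induced by interferon gamma and by NF-kB, was the gene called in the comparison of the sgUFM1 libraries with the controls for sgUFL1. It measured 42.62, 43.9 and 39.95 CPM in the sgUFM1 libraries and 35.05, 34.96 and 35.02 in set 2. The controls for sgUFL1 had 22.1, 37.04 and 20.54 CPM, and set 1 had 25.3, 48.51 and 50.8. The sgUFM1 libraries lay above set 2 and above the controls for sgUFL1, whose replicate 2 was high, and within the range of set 1, whose replicate 1 was low. The difference was 0.66 against the controls for sgUFL1 (SE 0.19, adjusted p = 0.044, edgeR) and 0.275 against set 2 (SE 0.082, adjusted p = 0.012). The former call was lost without replicate 1 (0.55) or replicate 3 (0.51) of the controls and when any single sgUFM1 library was left out (0.66, 0.64 and 0.70). It was also lost in the fit over 12 libraries (0.66) and with limma on FPKM (0.63). The latter call was lost without replicate 2 of the sgUFM1 libraries (0.245) and in the fit over 12 libraries (0.27). Against set 1 the difference was 0.03 (SE 0.20), and without replicate 1 of set 1 it turned to -0.23 and was called. Without replicate 2 of the controls for sgUFL1, set 1 (0.97) and set 2 (0.69) were called higher than these controls, where the fits with that library gave 0.65 (SE 0.29) and 0.38 (SE 0.19) with no call. Of the exon bases of IRF1, 22% are shared with genes on the opposite strand.

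IRF7, the interferon-inducible amplifier of interferon production, passed no test, and its groups overlapped. Its means were 5.573 ± 0.6823 CPM in the sgUFM1 libraries, 5.656 ± 1.114 in set 2, 5.535 ± 0.7198 in set 1 and 4.785 ± 0.651 in the controls for sgUFL1 (SD, n = 3), and the libraries of all 4 groups overlapped between 5.145 and 5.187 CPM. No comparison called it, and the log2 difference of the sgUFM1 libraries was -0.01 from set 2 (SE 0.19), 0.01 from set 1 (SE 0.19) and 0.21 from the controls for sgUFL1 (SE 0.22). With the offsets for GC content and length the log2 differences of this GC-rich gene changed, still without a call. The sgUFM1 libraries then differed by 0.44 from set 2 and 0.31 from set 1. Differences from the controls for sgUFL1 changed sign. They went from 0.21 to -0.225 for the sgUFM1 libraries, from 0.22 to -0.53 for set 1 and from 0.22 to -0.67 for set 2.

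STAT2, which joins IRF9 after type I interferon, also passed no test. It measured 53.2, 48.02 and 45.6 CPM in the sgUFM1 libraries, 50.85, 47.44 and 44.42 in set 2, 65.88, 43.92 and 43.98 in set 1 and 67.13, 44.36 and 56.36 in the controls for sgUFL1. Replicate 1 was the highest in each group, and the groups overlapped. Without replicate 2 of the controls for sgUFL1, STAT2 was called lower than in those controls in the sgUFM1 libraries (-0.34) and in set 2 (-0.40).

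IRF9, the DNA-binding part of that complex, was too low to compare. Its counts were 16, 8 and 11 in the sgUFM1 libraries, 24, 19 and 7 in set 2, 24, 1 and 10 in set 1 and 16, 15 and 18 in the controls for sgUFL1. The SE of its log2 differences between pairs of groups ran from 0.42 to 0.69, wider than most differences reported here. Of its exon bases, 48.44% (1838 of 3794) are shared on the same strand with AL136295.5, which had 27 to 42 counts per group. TREX1, whose exons lie wholly (100%) within those of ATRIP on the same strand, had 0 counts in every library, so the count of a gene with such an overlap may leave out part of its reads.

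The sgUFM1 libraries were then compared with each other set as a whole, all 3 comparisons sharing the sgUFM1 libraries. Against set 2, the controls for sgUFM1 by the count table's names, TLR3, DDX58, IFIH1, MAVS and IRF1 were higher and IRF3 was lower. That is 5 of 9 higher and 1 of 9 lower, where 19.3% of 15083 genes were called higher and 18.5% lower. Against set 1, the controls for sgUFM1 by the FPKM table's names, TLR3 was higher and IRF3 lower, 1 of 9 in each direction, where 4.57% and 5.15% of 14977 genes were called. Against the controls for sgUFL1, which are named alike in both tables but belong to the other guide, 1 of 9 (IRF1) was higher and 0 lower in edgeR, where 5.57% and 4.43% of 15035 genes were called. No member was lower there at an unadjusted p under 0.05 either. DESeq2 called 1 member, where it called 1020 higher and 928 lower of 29710 genes. Limma on FPKM called 0 members, with 285 and 157 of 14356 genes. The median log2 difference of the 9 genes was 0.17 against set 2, 0.03 against set 1 and 0.10 against the controls for sgUFL1, beside 0.01, -0.01 and -0.00446 for all genes tested. TLR3 had a positive difference in all 3 comparisons, and the size depended on the set it was compared with.

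**Figure D3:**
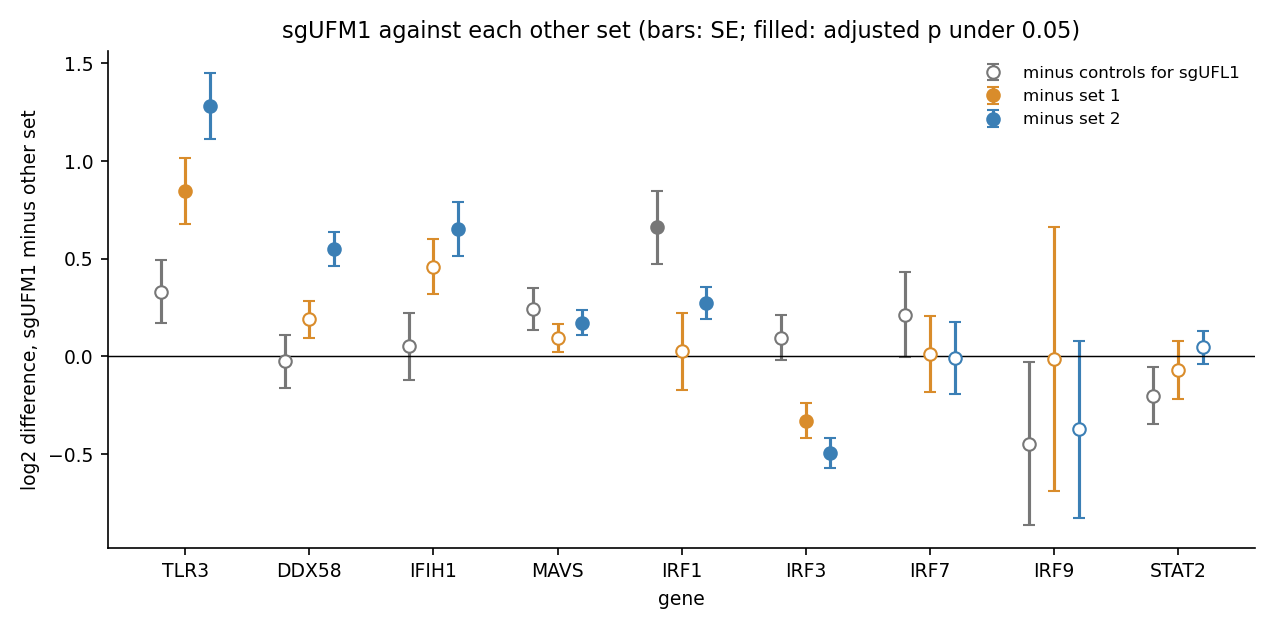
Log2 difference of each gene between the sgUFM1 libraries and each of the other 3 groups, with the standard error as a bar and filled points for an adjusted p under 0.05 (edgeR). TLR3 differs by 1.28 from set 2, 0.85 from set 1 and 0.33 from the controls for sgUFL1, and IRF3 lies below 0 against sets 1 and 2.

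The effect of the UFL1 guide was addressed by comparing set 1 or set 2, depending on the table, with the controls for sgUFL1, which both comparisons share. Under the names of the count table (set 1), edgeR called 0 of 9 members, where 1.08% of 14996 genes were called higher and 0.02% lower. At an unadjusted p under 0.05 there were 3 members (TLR3 and, in the other direction, IRF1 and IRF3), with no share over all genes taken. DESeq2 called 1 (IRF3), where it called 1239 higher and 457 lower of 29649 genes. Limma on FPKM called 0 members and 0 of all 14285 genes it tested. Under the names of the FPKM table (set 2), IRF3 was higher and TLR3, DDX58 and IFIH1 were lower, 1 and 3 of 9, where 17.4% of 15175 genes were called higher and 18.4% lower. The median of the 9 genes was -0.12 in set 1 and -0.08 in set 2, beside -0.01 and -0.03 for all genes. Between set 1 and set 2 themselves, 0 of 9 were called in edgeR, where 0.705% of 15033 genes were called higher in set 1 and 1.49% lower. DDX58, higher in set 1 by 0.35 (SE 0.10, adjusted p = 0.10), was the 1 member at an unadjusted p under 0.05, and DESeq2 and limma on FPKM called 0. Over all genes DESeq2 called 266 higher and 416 lower of 30001, and limma on FPKM 11 and 24 of 14298. Without replicate 1 of set 1, DDX58 (0.41) and IRF1 (0.48) were called higher and IRF3 (-0.25) lower in set 1. In that fit 1203 of 15341 genes were called higher and 1361 lower.

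The effects of the sgUFM1 and sgUFL1 guides, each against its own controls, were compared by an interaction term over all 12 libraries, whose value is the same under either naming. For TLR3 the effect was greater with the sgUFM1 guide by 1.79 on the log2 scale (SE 0.26, adjusted p = 0.00026, edgeR). DDX58 (0.75, SE 0.17, adjusted p = 0.0042) and IFIH1 (1.05, SE 0.23, adjusted p = 0.0029) differed in the same direction, and IRF3 in the opposite one (-0.93, SE 0.15, adjusted p = 0.00051). These were 3 of 9 higher and 1 of 9 lower, where 17% of 15821 genes were called higher and 17.9% lower. MAVS (0.01, SE 0.12), IRF1 (-0.37, SE 0.32), IRF7 (-0.23, SE 0.28) and STAT2 (0.17, SE 0.23) did not pass the test. With the offsets described next, IRF7 had the other sign at 0.96, also with no call.

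Base composition moved with these differences. The transcripts of TLR3, DDX58 and IFIH1 are the poorest in GC of the 9 (39.59, 40.19 and 41.7%), those of STAT2, MAVS, IRF1 and IRF9 lie between 51.71 and 56.15%, and those of IRF3 and IRF7 are the richest (60.98 and 67.04%). Across genes, Spearman's rho between GC content and the log2 difference was 0.75 for set 2 against the controls for sgUFL1, 0.76 for set 1 against them, 0.53 for the sgUFM1 libraries against them, -0.47 for the sgUFM1 libraries against set 2, -0.32 against set 1 and -0.70 for the interaction, over 14972 to 15815 genes that share the libraries. With offsets for GC content and length in each library, rho lay between -0.01 and 0.03. All 4 calls of set 2 against the controls for sgUFL1 then ended, with TLR3 at -0.47, DDX58 at -0.13, IFIH1 at -0.21 and IRF3 at 0.05. Over all genes, the calls in that comparison went from 2641 higher and 2797 lower to 599 and 470 of 15175. Of the interaction terms, TLR3 stayed called at 1.21, and DDX58 (0.22), IFIH1 (0.58) and IRF3 (-0.225) did not. Over all genes, the interaction calls went from 2683 higher and 2828 lower to 538 and 711 of 15821.

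Differences of the sgUFM1 libraries from set 2 were less affected, and so were the calls over all genes. Those went from 2906 higher and 2791 lower to 2426 and 2514 of 15083. With the offsets, TLR3 (1.02), DDX58 (0.32), IFIH1 (0.46), MAVS (0.14) and IRF1 (0.33) were still called higher and IRF3 (-0.24) lower. Against set 1, TLR3 (0.74) stayed called and IRF3 (-0.16) did not, where 650 of 14977 genes were called higher and 530 lower. Against the controls for sgUFL1, TLR3 became called at 0.55 while IRF1 (0.53) lost its call. In that fit 646 of 15035 genes were called higher and 595 lower. TLR3 was thus higher in the sgUFM1 libraries than in each of the other 3 groups once the offsets were applied.

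**Figure D4:**
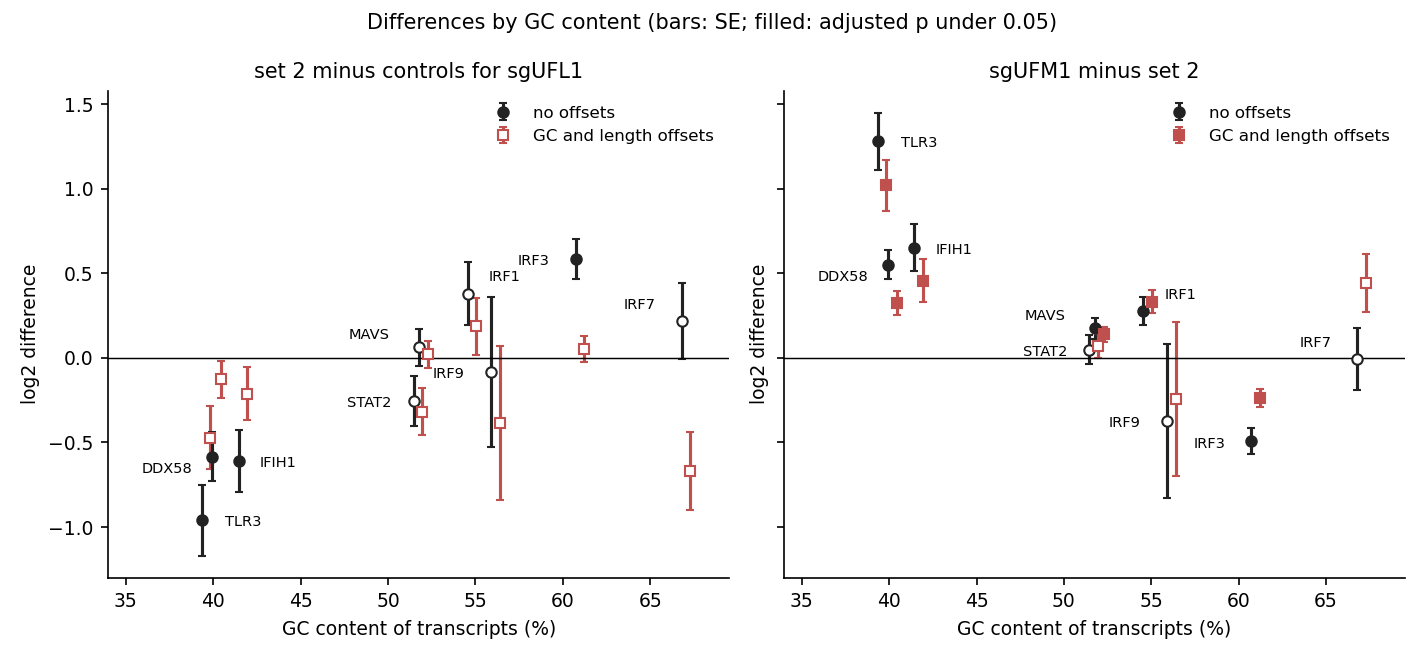
Log2 difference of each gene against the GC content of its transcripts (%), without offsets (circles) and with GC and length offsets (squares), the bars giving the SE and filled symbols an adjusted p under 0.05; symbols are moved sideways by a small equal step to keep them apart. At left, set 2 minus the controls for sgUFL1 has 4 filled circles and no filled square, and at right, the sgUFM1 libraries minus set 2 keep 6 filled symbols of each kind.

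Other genes of the pathway were taken from 7 lists with 113 genes, all found in the table and none a member of the 9. Sensors and adaptors other than the 9 members had 6 higher and 1 lower of 13 tested in the sgUFM1 libraries against set 2, where 19.3% of all genes tested were called higher and 18.5% lower. With GC and length offsets 6 were higher and 0 lower, where 2426 of 15083 genes were called higher and 2514 lower. Those called higher without offsets included the RNA-dependent kinase EIF2AK2 (0.47, SE 0.083), the DNA sensors IFI16 (0.44, SE 0.089) and AIM2 (0.83, SE 0.17) and the helicase DDX60 (0.70, SE 0.14). STING1, the adaptor of the DNA-sensing pathway, was the 1 gene of that list called in the sgUFM1 libraries against the controls for sgUFL1 (0.93, SE 0.17, adjusted p = 0.0065) and against set 1 (0.63, SE 0.13, adjusted p = 0.013). It measured 54.54 CPM in the sgUFM1 libraries, 43 in set 2, 35.33 in set 1 and 28.45 in the controls (means, n = 3). ZBP1, TLR7, TLR8 and TLR9 had at most 4 counts over all libraries.

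Kinases and signalling scaffolds, a list that includes NF-kB components, had 5 higher and 4 lower of 15 against set 2, beside 19.3% and 18.5% of all genes. With offsets the numbers were 3 and 4, beside 2426 and 2514 of 15083 genes. Without offsets, AZI2, a scaffold of the kinase TBK1, was higher by 0.64 (SE 0.091), and TBKBP1 (-0.99, SE 0.15), TRADD (-0.70, SE 0.11) and TRAF2 (-0.49, SE 0.10) were lower. Of the other IRF family members, IRF2 was the 1 tested of 5, and it did not pass. The 10 interferon genes of the list, IFNB1 among them, had 0 counts in all 12 libraries. A count of 0 allows up to 3 counts in a library, so transcripts below that level would not be seen.

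Receptors, JAK kinases and other STATs had 4 of 10 higher and 0 lower against set 2, beside 19.3% and 18.5% of all genes. With offsets they had 3 and 0, beside 2426 and 2514 of 15083 genes. Without offsets, at an unadjusted p under 0.05 the numbers were 4 and 0. DESeq2 called 4, where it called 2426 higher and 2530 lower of 29993 genes. Limma on FPKM called 3, with 2182 and 2237 of 14370 genes. Among those called by edgeR without offsets, the type I receptor chain IFNAR1 was higher by 0.54 (SE 0.083). The type II receptor chains IFNGR2 and IFNGR1 were higher by 0.45 (SE 0.084) and 0.33 (SE 0.092). Negative regulators had 6 higher and 2 lower of 18, beside 19.3% and 18.5% of all genes. With offsets they had 8 and 3, beside 2426 and 2514 of 15083 genes. Called without offsets were, among others, the RNA-editing enzyme ADAR (0.29, SE 0.062), PTPN11 (0.23, SE 0.066) and ATG5 (0.35, SE 0.11) higher and the corepressor IRF2BP1 (-0.33, SE 0.081) lower.

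Interferon-stimulated targets, the read-out of the pathway, had 18 of 34 higher and 2 lower in the sgUFM1 libraries against set 2, beside 19.3% and 18.5% of all genes, with a median log2 difference of 0.38. The RNA-binding effectors IFIT1 (27.63 CPM in set 2 and 75.63 in the sgUFM1 libraries), IFIT2 (31.82 and 66.19) and IFIT3 (46.35 and 97.47) and the OAS-like gene OASL (16.05 and 37.39) were those with the smallest p. With GC and length offsets the counts were 20 and 0, beside 2426 and 2514 of 15083 genes. With each library left out in turn 16 to 18 targets were higher and 0 to 3 lower. Over all genes these fits called 2095 to 3197 higher and 2068 to 3328 lower. Against set 1 there were 3 higher and 0 lower of 34, beside 4.57% and 5.15% of all genes. MX2 (1.10, SE 0.25) and OAS2 (0.60, SE 0.10) were among those called. At an unadjusted p under 0.05 there were 8 and 2. DESeq2 called 3, where it called 773 higher and 917 lower of 29658 genes, and limma on FPKM 1, with 371 and 426 of 14298. Against the controls for sgUFL1 there were 4 higher and 1 lower of 34, beside 5.57% and 4.43%. That number of higher targets was 1 without replicate 3 of those controls and 12 without replicate 2. Over all genes, 540 of 15398 were called higher without replicate 3 and 2195 of 15492 without replicate 2. The lists were put together with results of these data known.

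For set 2 against the controls for sgUFL1, the targets had 4 higher and 11 lower of 33, beside 17.4% and 18.4% of all genes. With offsets the targets had 2 and 3, beside 599 and 470 of 15175 genes. Sensors other than the members had 3 higher and 4 lower of 13, not far from the shares without offsets, and with offsets 0 and 0. Set 1 against these controls had 0 called in all 7 lists together in edgeR, beside 1.08% and 0.02% of all genes. At an unadjusted p under 0.05 there were 31 of 91, with no share over all genes taken. DESeq2 called 11, where it called 1239 higher and 457 lower of 29649 genes. Limma on FPKM called 0 of the lists and 0 of all 14285 genes it tested. Between set 1 and set 2, 1 target (HERC5, higher in set 1 by 0.46, SE 0.097) and 1 scaffold (TBKBP1, lower by a log2 difference of -0.76, SE 0.15) were called, beside 0.705% of all genes higher and 1.49% lower. Without replicate 1 of set 1, 14 targets were called higher in set 1, where 1203 of 15341 genes were called higher and 1361 lower. In the interaction, targets had 10 higher and 5 lower of 34, beside 17% and 17.9% of all genes. With offsets they had 6 and 0, beside 538 and 711 of 15821 genes.

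The protein-coding genes whose log2 CPM followed a member most closely over the 12 libraries were looked up for the 3 members with the widest range of group means. TGOLN2, MFAP3 and DCBLD2 followed TLR3 (Pearson's r = 0.975, 0.968 and 0.958), and their GC content was 49.13, 45.27 and 40.91%. TOPORS, SERINC1 and NUCB2 followed IFIH1 (0.972, 0.971 and 0.964), with GC content of 39.45, 38.35 and 40.46%. TNIP1, COL6A1 and ADAMTS15 followed IRF1 (0.978, 0.974 and 0.970), with GC content of 58.06, 63.61 and 59.79%. These are descriptions over 12 libraries that share groups, depth and base composition.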

How the data were processed

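The authors deposited whole-number read counts per gene and FPKM values for 12 libraries. The tools listed, per the submitters' processing notes, are featureCounts 2.0.0, STAR 2.7.7a and fastp 0.20.1, the build is GRCh38, with settings and strand not given in the sources used here. Libraries were grouped by the titles in the labels. Over 9888 genes, each FPKM column matched 1 count column (SD of the log2 ratio 2.15e-10 at most, next best at least 0.129), and 6 of 12 matched another group's name.

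Counts entered edgeR 4.0.16 (R 4.3.3) after filterByExpr and TMM scaling, and its quasi-likelihood test was adjusted by Benjamini-Hochberg over all genes at 0.05, with the 6 libraries of a comparison, or 12 for the interaction. The SE was derived from the same model. The edgeR procedure was tested on simulated data. Alternatives were RLE scaling, no filter, DESeq2 1.42.0, a fit over 12 libraries, a replicate block, limma 3.58.1 on log2(FPKM + 0.5), lowess offsets (span 0.3) for GC content and length, and each library left out. Fold changes in limma are on that scale, which understates low genes. List counts with offsets or without a library were added after seeing the data.

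All 9 members, UFL1 and UFM1 are named, with at most 4 called genes per pathway list in each comparison by smallest p, and the 3 most similar genes for 3 members with a mean of at least 1 CPM. The members and lists were chosen with earlier results of these data known. Gene positions and overlaps come from GENCODE 29 and promoters from RefSeq. ZBP1, TLR7, TLR8, TLR9, TREX1, IFNB1 and IRF2 were named after their values were seen. Results of some listed genes are not reported here, and counts over lists include them.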

Additional observations from a re-analysis of the deposited data

Results flagged for a closer look

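The effects of the sgUFM1 and sgUFL1 guides, each against its own controls, differed by the test of the difference itself for 4 of the 9 genes, 3 higher and 1 lower, where 17% of 15821 genes were called higher and 17.9% lower. The difference between the guide effects on the log2 scale was 1.79 for TLR3, 0.75 for DDX58, 1.05 for IFIH1 and -0.93 for IRF3. The naming of sets 1 and 2 does not enter these values. With offsets for GC content and length they were 1.21, 0.22, 0.58 and -0.225, and TLR3 alone of these 4 remained past the threshold. With these offsets 538 of 15821 genes were called higher and 711 lower.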

How the results depend on the processing

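Of 855 values of single members under the alternatives, 798 kept their side of the threshold, 40 lost a call and 16 gained one, and 44 had the other sign, in all but 1 case with no call. That case was IRF1 in the sgUFM1 libraries against set 1, at -0.23 without replicate 1 of set 1 and otherwise up to 0.194 with each library left out. The number of members called for the sgUFM1 libraries against the controls for sgUFL1 was 1, and 0 with a fit over 12 libraries or limma on FPKM, and 0 to 2 with each library left out. Against set 1 it was 2, and 1 with a fit over 12 libraries, a replicate block, limma on FPKM or GC and length offsets, and 0 to 4 with each library left out. Against set 2, MAVS lost its call with no filter, a replicate block or limma on FPKM. The fit over 12 libraries lost the calls of both MAVS and IRF1. The number of members called against set 2 was 6, and 4 to 6 with each library left out. For set 1 against the controls for sgUFL1 it was 0, but 2 with no filter, 1 with DESeq2 or a fit over 12 libraries, and 0 to 1 with each library left out. For set 2 against these controls it was 4, and 0 with the offsets, and 2 to 6 with each library left out. Between sets 1 and 2 it was 0, and 0 to 3 with each library left out. For the interaction it was 4, and 1 with the offsets, and 4 to 5 with each library left out. Calls over all genes moved too. With each library left out, 7 to 1203 genes were higher in set 1 than in set 2. In set 2 against the controls for sgUFL1, 1378 to 3430 were higher. For the offsets the GC trend shown in the report moved with the loss; elsewhere the cause was not tested. Whether the replicate numbers pair the libraries was not settled. Same-numbered libraries had correlated deviations above 0.1 in all 3 pairs for no comparison, and 6 of 12 libraries correlated best with their own number. Between set 1 and the controls for sgUFL1 the correlations were 0.375, 0.376 and -0.216 for replicates 1, 2 and 3. With the replicate block, the sgUFM1 libraries had 1 member called against the controls for sgUFL1, 5 against set 2 and 1 against set 1. Set 1 had 0 and set 2 had 5 against those controls, sets 1 and 2 had 0 between them, and the interaction had 4. IRF9 had 1 to 24 counts per library, and what part of this its overlap with another gene has was not tested.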
